A study of Saccharomyces cerevisiae with 8 samples.

Results

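Budding yeast labelled A880, a strain described as BY4741 without the gene POP2, was compared with BY4741 after growth on glycerol, in 2 arrays of each strain, which make up 4 of the 8 arrays of the study. The arrays were chosen by their labels alone. BY4741 is the name of a common haploid laboratory strain of mating type a, and the arrays with this label served as the wild type. Both strains grew in synthetic medium with 2% glucose and then for 12 hours in the same medium with 2% glycerol, and total RNA of whole cells was hybridised. Replicates are labelled as biological, and nothing in the labels says whether A880 is 1 clone or several. The remaining 4 arrays are labelled as A880 that received STM1 or a mutant STM1. Here they enter the estimate of the spread and the filter on dim probe sets, and their medians over chromosome I are given once. The labelled question is what loss of POP2 does to RNA levels during respiratory growth.

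Pop2 is a nuclease subunit of CCR4-NOT, the conserved complex that shortens the poly(A) tails of messenger RNAs and so starts their decay. Ccr4 is the complex's other nuclease, Not1 (gene CDC39) is its scaffold, and PUF proteins bring the complex to chosen messenger RNAs by binding their 3' ends. Yeast cannot ferment glycerol. On it the cells rely on mitochondria for energy and make sugars by gluconeogenesis, and the genes for both are held down by glucose, in part through the repressor Mig1.

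On each array 99.5% to 99.9% of probe sets for 1 yeast gene exceeded background, set at 5.15 to 8.40 signal units, so absence of a signal was uncommon. A probe set was called where the Benjamini-Hochberg adjusted p of the limma fit was below 0.05. Of 5496 probe sets tested, 764 were called (13.9%), 424 of them higher in A880 (7.71%) and 340 lower (6.19%). At an unadjusted p below 0.05 in the same fit of all 8 arrays, 17.0% of the 5448 genes were higher and 13.3% lower. With only the 4 compared arrays in the fit, 2992 were called (54.4%, with 29.6% higher and 24.8% lower). The 4 arrays labelled A880STM1 and A880STM1K varied more, with a median absolute log2 difference between replicates of 0.465 and 0.388 against 0.144 in BY4741 and 0.118 in A880, and that spread enters the first count. They also showed POP2 signal, against their labels. The 2 arrays of one strain lay wholly above those of the other for 4353 probe sets (79.2%, with 41.5% higher and 37.7% lower in A880), so a gene whose groups do not overlap is the usual case. Leaving out 1 of the 4 compared arrays left 95 to 164 calls, and 86 of the 764 calls held with any 1 of the 8 arrays left out. A gene is said to be called, to rise or to fall by the fit of all 8 arrays unless the fit of the 4 is named. A named gene held in that way, and under both other scalings, unless the text gives its largest adjusted p with 1 array left out or says that its call was lost. Changes are log2 differences, A880 minus BY4741, ± SE with n = 2 arrays per strain, and the median over all tested genes was 0.017. The deposited signals had a trimmed mean of 500 on every array. Changes are therefore relative to the array as a whole, and a difference in total messenger RNA between the strains would not show. A lower signal from fewer cells of a kind and one from less RNA per cell cannot be told apart in whole cultures.

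POP2 (YNR052C) gave a signal of 883 and 814 on the BY4741 arrays and 0.221 and 0.452 on the A880 arrays, both below background, at least 140-fold lower (adjusted p = 1.56e-07). Its neighbours on chromosome XIV, BRE5 and NOG2, were not called (adjusted p = 0.735 and 0.365). The other nuclease gene went the opposite way. CCR4 (YAL021C) had signals of 640 and 633 on BY4741 and 2062 and 2031 on A880 arrays, a rise of 1.69 ± 0.21 or 3.22-fold (adjusted p = 0.000942). CAF40, a conserved subunit without nuclease activity, had 607 and 527 against 1447 and 1110, a rise of 1.16 ± 0.26 (adjusted p = 0.0173, and 0.193 without A880 replicate 1). Of the 9 CCR4-NOT subunits, 2 rose and POP2 fell. The scaffold gene CDC39 had a change of 0.22 ± 0.28, MOT2, the ubiquitin ligase subunit, -0.08 ± 0.25, NOT5 0.44 ± 0.21, CDC36 -0.24 ± 0.22, NOT3 -0.23 ± 0.33 and CAF130 -0.52 ± 0.32, with no call. CCR4 lies on chromosome I, whose genes were higher as a whole, as described later.

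**Figure D1:**
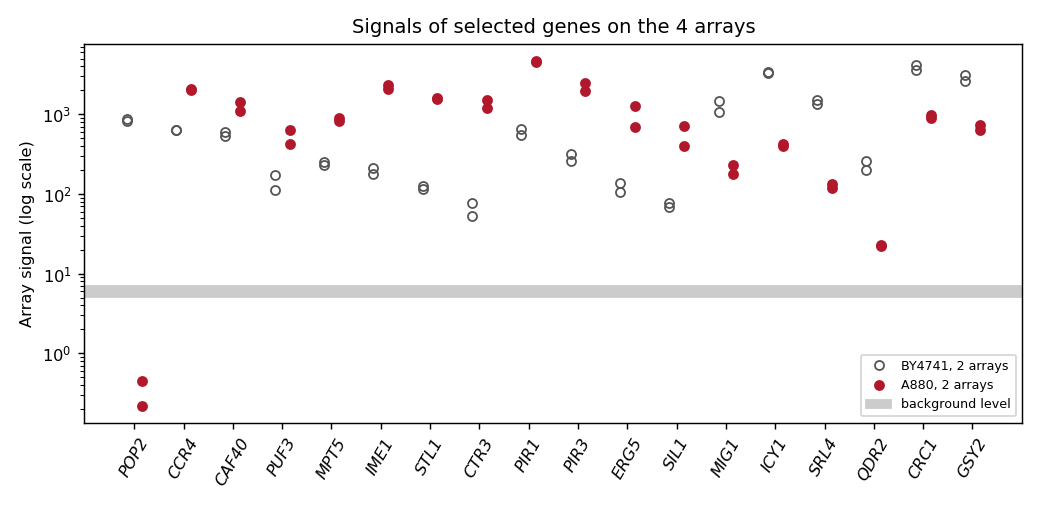
Array signal (log scale, y axis) of 18 selected genes on the 2 BY4741 arrays (open circles) and the 2 A880 arrays (filled circles), with the range of the arrays' background levels as a grey band. The points of the 2 strains are apart for each gene shown, and POP2 lies below the band in A880.

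Among 21 other messenger RNA decay factors, 2 fell and none rose in the limma fit (10 lower and 5 higher in the fit of the 4 arrays, 3 and 4 at an unadjusted p below 0.05), and the list's median change was -0.12. Of all probe sets, the fit of the 4 arrays called 24.8% lower and 29.6% higher. At the unadjusted cut 13.3% of all genes were lower and 17.0% higher. DHH1, the RNA helicase that joins CCR4-NOT to decapping, had 2136 and 1718 on BY4741 and 963 and 874 on A880, a fall of 1.06 on the log2 scale (SE 0.22, adjusted p = 0.0116, and 0.176 without BY4741 replicate 1). EDC1, an enhancer of decapping, fell by 1.22 (SE 0.36, adjusted p = 0.0486), and this call was lost with quantile normalization (adjusted p = 0.0519) and without BY4741 replicate 1 (0.399).

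Of 6 PUF genes, MPT5 and PUF3 rose and the others were not called (3 higher and 1 lower in the fit of the 4 arrays, which also called JSN1 higher and PUF4 lower). MPT5, also called PUF5, gave 254 and 230 on BY4741 and 896 and 828 on A880, a 3.56-fold rise (log2 1.83 ± 0.29, adjusted p = 0.00421). PUF3, whose protein binds messenger RNAs for mitochondrial proteins, gave 172 and 111 against 636 and 425, a 3.75-fold rise (1.91 ± 0.34, adjusted p = 0.00728, and 0.0769 without A880 replicate 1). PUF4 had -0.71 ± 0.30, PUF2 -0.38 ± 0.36, PUF6 -0.08 ± 0.46 and JSN1, also called PUF1, 0.57 ± 0.29. Of 4 transcripts known as PUF targets, 2 rose and 2 were not called (3 higher and 0 lower in the fit of the 4 arrays). Their changes lay between 0.11 and 1.40. COX17, a copper chaperone for cytochrome oxidase whose RNA Puf3 binds, had 968 and 1352 against 2332 and 2368. Its rise of 1.04 ± 0.23 (adjusted p = 0.0169) was not called with equal array medians (0.0666) or without BY4741 replicate 1 (0.236). HO, the mating type switching nuclease, whose RNA Mpt5 and Puf4 bind, was low in both strains at 43.6 and 42.7 against 116 and 111, and rose by 1.40 ± 0.37 (adjusted p = 0.0333, and 0.249 without BY4741 replicate 1).

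The strains also differed at genes other than POP2 in a way that left no signal in one of them. URA3, needed to make uracil, gave 3.32 and 1.14 on BY4741 and 5062 and 5537 on A880 arrays, at least 817-fold higher (adjusted p = 1.04e-07). CAN1, the arginine permease, gave 0.318 and 0.551 on BY4741 and 920 and 775 on A880, at least 130-fold higher (adjusted p = 3.94e-08). Both genes were below background on the BY4741 arrays, while their neighbours were detected in both strains: GEA2 and TIM9 beside URA3 changed by 0.11 ± 0.25 and 0.48 ± 0.25, and AVT2 and NPR2 beside CAN1 by -0.54 ± 0.34 and -0.15 ± 0.27, with no call. The remaining genes of the marker list gave less. LEU2, a leucine enzyme, fell by 1.22 (SE 0.33, adjusted p = 0.0344), which was lost with equal array medians (0.0658) and without A880 replicate 2 (0.204). HIS3 had a change of -0.28 ± 0.24, LYS2 0.02 ± 0.32 and MET17 0.12 ± 0.45. LEU2 and MET17 were detected on the BY4741 arrays, at 530 and 542 and at 713 and 2180. Loss of POP2 and these further differences between the strains cannot be told apart in this comparison. Whether the cultures of either strain had the genotype of their label was not tested.

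Besides POP2, 11 genes with signals over 5 times background on both BY4741 arrays were below background on both A880 arrays. Most of them lay in blocks. At the right end of chromosome III, 8 of the last 10 tested genes fell and 4 of these were not above background in A880, with a median change of -4.09, the lowest of the 32 chromosome ends. YCR099C went from 258 and 243 to 2.06 and 4.64, YCR101C from 219 and 181 to 2.76 and 6.09, and YCR102C from 227 and 180 to 0.456 and 0.851. ADH7, an alcohol dehydrogenase, went from 61.6 and 44.4 to 1.67 and 0.96, at least 8.65-fold lower. Further along, RDS1, a zinc cluster factor, had 93.8 and 107 against 5.29 and 0.582, and AAD3, a putative aryl alcohol dehydrogenase, 64.7 and 59.1 against 9.33 and 8.22. PAU3, a seripauperin whose probe set is shared with near-identical genes, kept a signal of 39.2 and 40.2 in A880 against 180 and 190. On the inner side, GIT1, a transporter of glycerophosphoinositol, fell by 1.44 (SE 0.34, adjusted p = 0.0197, and 0.229 without BY4741 replicate 1).

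**Figure D2:**
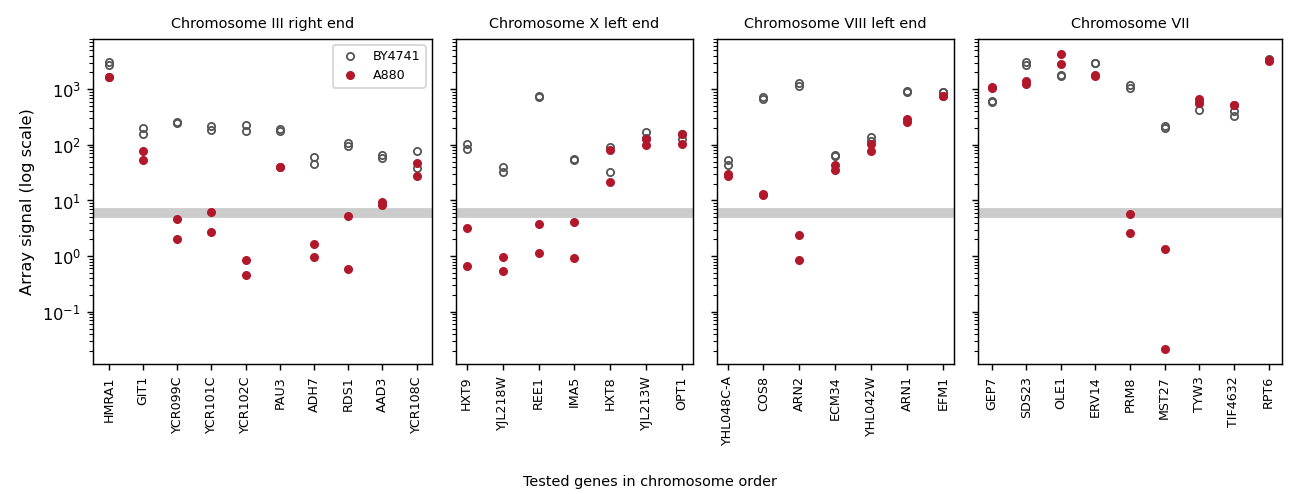
Array signal (log scale, y axis) of tested genes in chromosome order (x axis) around 4 groups of genes without signal in A880, on the 2 BY4741 arrays (open circles) and the 2 A880 arrays (filled circles); the grey band is the range of background levels. At the end of chromosome X 4 neighbours lie below the band in A880. At the end of chromosome III YCR099C, YCR102C and ADH7 lie below it, YCR101C and RDS1 reach it on 1 array, and PAU3 and AAD3 lie above it.

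At the left end of chromosome X, 4 neighbours were without signal in A880. REE1, which takes part in the control of enolase, went from 713 and 746 to 3.76 and 1.14, at least 121-fold lower. HXT9, a hexose transporter, went from 105 and 83.4 to 0.678 and 3.25, and IMA5, an isomaltase, from 53.8 and 54.7 to 4.18 and 0.929. YJL218W between them had 39.9 and 33 against 0.53 and 0.947, and is named for its place, since 1 of its BY4741 signals was under 5 times background. The next gene inwards, HXT8, had 92.1 and 32.9 against 80.4 and 21.1, and its groups overlap.

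Pairs and single genes elsewhere were without signal or near background in A880. On chromosome VIII, ARN2, a siderophore transporter, went from 1278 and 1158 to 2.43 and 0.849, at least 201-fold lower, and its neighbour COS8 from 734 and 677 to 12.8 and 13.1, a 54.4-fold fall. On chromosome VII, PRM8 went from 1169 and 1072 to 2.59 and 5.64 and its neighbour MST27, whose protein takes part in coated vesicle formation, from 197 and 221 to 0.0216 and 1.36. Both flanking genes were detected in A880: ERV14 fell by 0.72 on the log2 scale (SE 0.19, adjusted p = 0.0341, and 0.302 without A880 replicate 2), and TYW3 had 0.34 ± 0.29 with no call. YBR013C on chromosome II went from 900 and 997 to 0.15 and 0.149, between IPP1 and GRX7, which changed by -0.54 ± 0.26 and 0.52 ± 0.24 with no call. Whether DNA of these genes is present in A880 was not tested.

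Genes of chromosome I were higher in A880 as a group. Of its 90 tested genes, 31 rose (34.4%) and none fell in limma, against 7.71% and 6.19% of all probe sets. At an unadjusted p below 0.05, 45 were higher (50%) and 5 lower (5.56%), against 17.0% and 13.3% of all genes. The fit of the 4 arrays alone called 55 higher (61.1%) and 8 lower, against 29.6% and 24.8% of all probe sets. The median change of its genes was 0.63, which is 0.61 above the median of all genes. The other 15 chromosomes had medians between -0.12 on chromosome III and 0.11 on chromosome X. On chromosome I, 66 genes were above 0 and 24 below (73.3%, against 51.4% of all genes above 0). The middle 50% of its genes lay between -0.017 and 1.20, where the same range over all genes was -0.38 to 0.45.

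**Figure D3:**
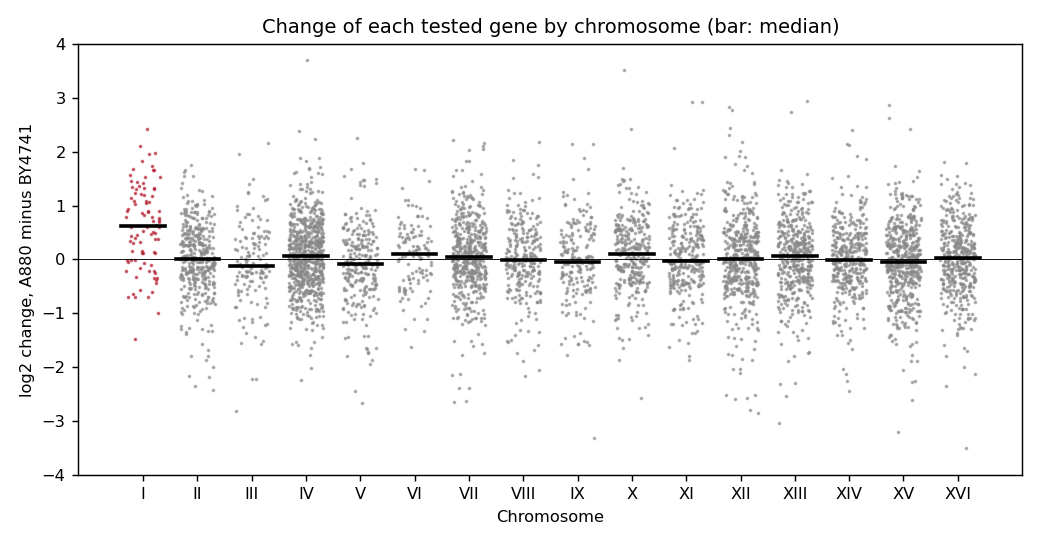
Change of each tested gene (log2, A880 minus BY4741, y axis) by chromosome (x axis), 1 point a gene, with the median of each chromosome as a bar; 18 genes beyond the limits of 4 and -4 are not drawn. The bar of chromosome I lies at 0.63 and the others between -0.12 and 0.11.

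The values of single arrays follow as a description. Set against the mean of the BY4741 arrays and relative to all genes, the median over chromosome I was 0.588 and 0.615 on the A880 arrays. The BY4741 arrays lay at -0.00772 and 0.00772, which are centred on 0 by construction. It was 0.520 and 0.401 on the arrays labelled A880STM1 and 0.394 and 0.458 on those labelled A880STM1K, which share the BY4741 arrays as their reference. The 20 outermost tested genes, 10 at each end, had a median of 0.041 with 2 that rose, and the 70 genes between them 0.78 with 29 that rose. Genes of low, middle and high signal on this chromosome had medians of 0.67, 1.08 and 0.39, against 0.036, 0.12 and -0.086 for the same classes of the other genes. Runs of 15 neighbouring genes had a median above 0.5 in 61 of 76 positions on chromosome I (80.3%) and in 87 of 5148 elsewhere (1.69%). The windows and the signal classes were chosen after the values were seen. The number of copies of chromosome I in A880 was not tested.

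Of 32 called probe sets on chromosome I, those of 6 genes held with any 1 array left out, and their products have different roles. MTW1, a kinetochore subunit, had 133 and 124 on BY4741 and 720 and 668 on A880, a 5.39-fold rise (2.43 ± 0.32, adjusted p = 0.00144). MDM10, a tether between mitochondria and the endoplasmic reticulum, had 240 and 268 against 1119 and 1061, a 4.29-fold rise (adjusted p = 0.0013). For FUN12, translation initiation factor eIF5B, the signals were 1317 and 1383 against 3958 and 4645, a 3.18-fold rise (adjusted p = 0.00142). PMT2, a protein mannosyltransferase, rose 3.32-fold (adjusted p = 0.00203) and NUP60, a nucleoporin, 3.14-fold (adjusted p = 0.00129). CCR4 is the sixth, and MDM10, PMT2 and NUP60 are named after their values were seen. Of the 35 genes with high signal, 8 rose. Among those not called, CDC19, the pyruvate kinase of glycolysis, had 5703 and 5831 against 5206 and 5839 with overlapping groups, and SSA1, a cytosolic chaperone, had 0.70 ± 0.24 (adjusted p = 0.0769). CYS3, a cysteine synthesis enzyme, had -0.02 ± 0.64.

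**Figure D4:**
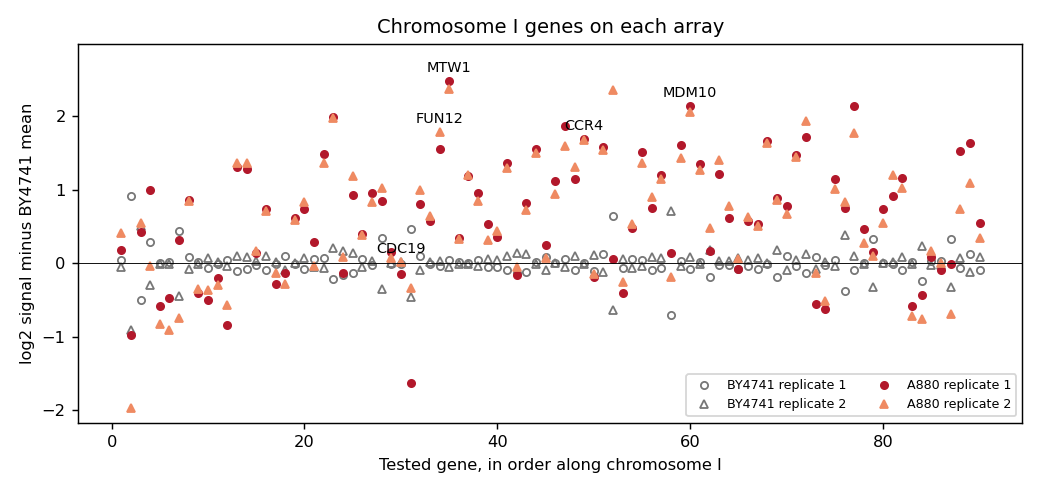
Log2 signal of the 90 tested genes of chromosome I on each of the 4 arrays, less the mean of the BY4741 arrays (y axis), in order along the chromosome (x axis); open symbols are BY4741, filled symbols A880, and circles and triangles are replicates 1 and 2. Filled points lie above 0 for most genes between the ends, with MTW1 highest, and CDC19 near 0.

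Off chromosome I, genes for making proteins inside mitochondria were among those that rose. Of 19 mitochondrial tRNA synthetases and translation factors, 9 rose and none fell (11 higher and 1 lower in the fit of the 4 arrays, 9 and 0 at an unadjusted p below 0.05), with a median change of 0.55. RRF1, the ribosome recycling factor, gave 153 and 181 on BY4741 and 753 and 752 on A880, a 4.52-fold rise (2.18 ± 0.38, adjusted p = 0.00626, and 0.0572 without BY4741 replicate 1). MSF1, the phenylalanyl-tRNA synthetase, gave 61.2 and 65.4 against 216 and 227, a 3.50-fold rise (adjusted p = 0.00594, and 0.0706 without BY4741 replicate 1). DIA4, the seryl enzyme, rose 3.61-fold, MSY1, the tyrosyl enzyme, 2.80-fold, and MSE1, the glutamyl enzyme, 2.50-fold, with adjusted p = 0.0223, 0.0151 and 0.0198. Without BY4741 replicate 1 that of DIA4 was 0.192 and that of MSE1 0.221, and without BY4741 replicate 2 that of MSY1 was 0.106. TUF1, the elongation factor, had 2067 and 1836 against 2119 and 2098 (0.11 ± 0.23), and MSK1, the lysyl enzyme, -0.39 ± 0.29. Every call in this group with a value here was lost without 1 of the compared arrays, and with 1 of those arrays left out between 0 and 2 members rose.

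Of 73 mitochondrial ribosomal proteins, 12 rose and none fell (50 higher and 1 lower in the fit of the 4 arrays, 31 and 0 at an unadjusted p below 0.05), with a median of 0.52. MRPL32 of the large subunit stood above the others with 228 and 220 against 1024 and 988, a 4.49-fold rise (2.17 ± 0.22, adjusted p = 0.000336). It was the 1 member that rose with any of the 4 compared arrays left out. Of 29 import components, 3 rose (14 higher and 1 lower in the fit of the 4 arrays, and 9 rose with quantile normalization), with a median of 0.25. Of 37 respiratory chain and ATP synthase subunits 3 rose, a share near the 7.71% of all probe sets (17 higher and 4 lower in the fit of the 4 arrays, and 9 rose with quantile normalization), with a median of 0.18. NDI1 and NDE1, the NADH dehydrogenases on the inner and outer face of the inner membrane, had 1047 and 1063 against 2606 and 2932, and 1223 and 1090 against 2628 and 2925. They rose 2.62-fold and 2.40-fold (adjusted p = 0.00789 and 0.00491, and 0.085 and 0.0818 without A880 replicate 2). QCR2, a core subunit of complex III, rose 1.93-fold (adjusted p = 0.0323), a call lost with equal array medians (0.124) and without BY4741 replicate 1 (0.203), while the other core subunit gene COR1 was at 0.00 ± 0.21. No TCA cycle gene of 15 was called in limma (5 higher and 2 lower in the fit of the 4 arrays, 0 and 1 at an unadjusted p below 0.05), with a median of 0.05, and CIT1, the citrate synthase, had -0.38 ± 0.22.

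**Figure D5:**
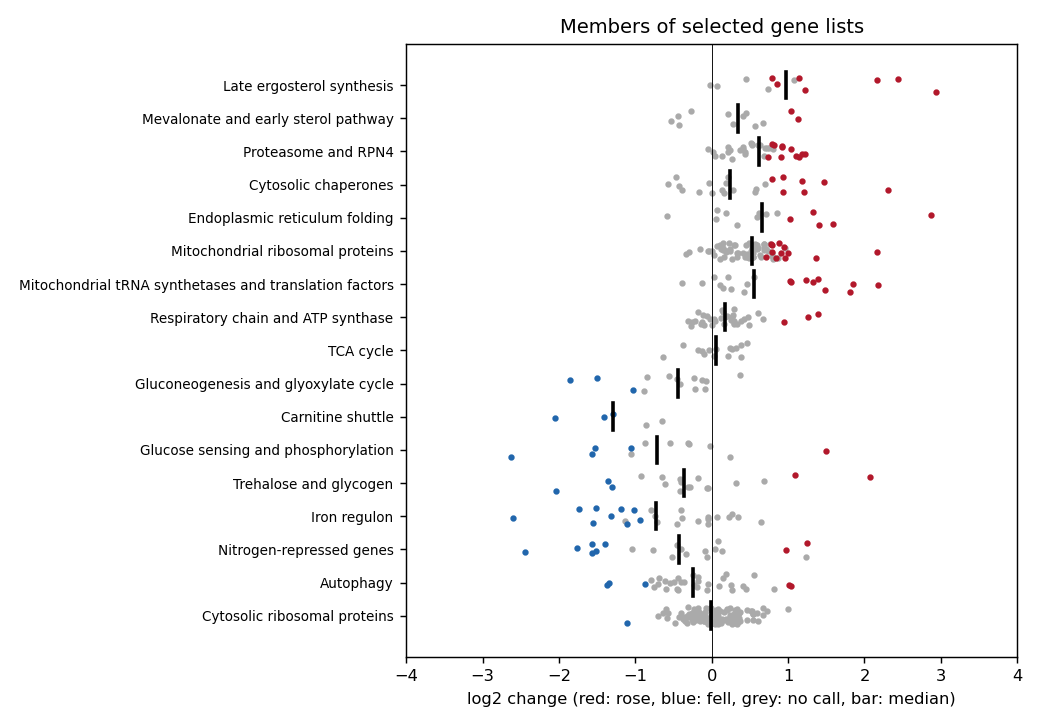
Change (log2, A880 minus BY4741, x axis) of the tested members of 17 gene lists (y axis), 1 point a gene; red points rose, blue points fell, grey points were not called, and the bar is the list's median. ARN2 of the iron list lies beyond the left limit; late ergosterol synthesis has the highest median (0.97) and the carnitine shuttle the lowest (-1.29).

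Calls among genes for handling acetyl units and for gluconeogenesis were falls. Of 5 carnitine shuttle genes, which carry acetyl units between compartments, 3 fell and none rose (5 lower and 0 higher both in the fit of the 4 arrays and at an unadjusted p below 0.05), with a median of -1.29. CRC1, the mitochondrial carnitine carrier, had 4180 and 3634 on BY4741 and 981 and 904 on A880, a 4.14-fold fall (adjusted p = 0.000882). YAT2, a carnitine acetyltransferase, had 7063 and 6670 against 2774 and 2386, a 2.67-fold fall (adjusted p = 0.033, and 0.178 without A880 replicate 2), and AGP2, the plasma membrane carnitine transporter, fell 2.44-fold (adjusted p = 0.0172, and 0.197 without A880 replicate 2). CAT2, the main acetyltransferase, had 7315 and 6905 against 3880 and 3946 (-0.86 ± 0.26, adjusted p = 0.0523). Of 14 gluconeogenesis and glyoxylate cycle genes, 3 fell and none rose (9 lower and 1 higher in the fit of the 4 arrays, 6 and 0 at an unadjusted p below 0.05), with a median of -0.44. ICL1, isocitrate lyase, had 6036 and 5160 against 2118 and 1114, a 3.63-fold fall, and PCK1, the enzyme that starts gluconeogenesis, 5984 and 5484 against 2476 and 1660, a 2.83-fold fall (adjusted p = 0.00786 and 0.00501, and 0.0817 and 0.0818 without A880 replicate 2). SIP4, an activator of these genes, fell 2.04-fold (adjusted p = 0.0481, and 0.353 without BY4741 replicate 1). FBP1, the other enzyme specific to gluconeogenesis, had 3301 and 3491 against 4239 and 4567 (0.37 ± 0.34, adjusted p = 0.498), and the activators CAT8 and ADR1 had -0.42 ± 0.31 and -0.45 ± 0.27. Fatty acid oxidation and peroxisome genes gave 1 fall and no rise, near the 6.19% of all probe sets that fell. In that list 9 were lower and 3 higher in the fit of the 4 arrays, and 2 and 2 at an unadjusted p below 0.05. Of 16 genes of fatty acid oxidation and peroxisomes, ECI1, an isomerase, fell 1.99-fold (adjusted p = 0.0312), a call lost with quantile normalization (0.0517) and without BY4741 replicate 1 (0.215).

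Glucose signalling genes differed as well. Of 12 genes for glucose sensing and phosphorylation, 4 fell and 1 rose (8 lower and 1 higher in the fit of the 4 arrays), with a median of -0.71. MIG1, the glucose repressor, gave 1449 and 1070 on BY4741 and 233 and 176 on A880, a 6.16-fold fall (log2 -2.62 ± 0.34, adjusted p = 0.00128). MTH1, a repressor of hexose transporter genes in the absence of glucose, gave 3412 and 3226 against 1126 and 1169, a 2.89-fold fall (adjusted p = 0.00212). RGT1, the factor that Mth1 works with, fell 2.07-fold (adjusted p = 0.0377, and 0.207 without BY4741 replicate 2), and HXK2, the hexokinase used on glucose, 2.97-fold (adjusted p = 0.0182, and 0.137 without BY4741 replicate 1). SUC2, invertase, a classic target of Mig1, had 671 and 640 against 1586 and 2169 and rose 2.83-fold (adjusted p = 0.0292), a call lost with equal array medians (0.0968) and without A880 replicate 2 (0.19). HXK1 overlapped between the strains (-0.02 ± 0.25). Of 14 hexose transporters, HXT9 of the chromosome X block alone was called.

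STL1, the glycerol importer of the plasma membrane, gave 127 and 116 on BY4741 and 1538 and 1615 on A880, a 13-fold rise (3.70 ± 0.37, adjusted p = 0.000302). Of 13 genes for glycerol uptake and metabolism it was joined by DAK1, a dihydroxyacetone kinase, which rose 1.74-fold (adjusted p = 0.0458), a call lost with equal array medians (0.142) and without A880 replicate 2 (0.306). The genes that turn glycerol into a glycolytic intermediate gave no call, with GUT1, glycerol kinase, at 4070 and 3808 against 2711 and 2472 (-0.60 ± 0.31) and GUT2, the mitochondrial dehydrogenase, at -0.28 ± 0.23. Of 13 glycolytic genes, PFK1 and PFK2, the phosphofructokinase subunits, rose 1.77-fold and 1.93-fold (adjusted p = 0.0449 and 0.0313). Both calls were lost with equal array medians (0.165 and 0.13) and with 1 array left out (0.302 without A880 replicate 2 and 0.286 without BY4741 replicate 1).

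Of 18 trehalose and glycogen genes, 3 fell and 2 rose (11 lower and 4 higher in the fit of the 4 arrays), with a median of -0.36. The 3 that fell start or extend glycogen. GSY2, the main glycogen synthase, had 3072 and 2604 against 640 and 735, a 4.12-fold fall (adjusted p = 0.00124). GSY1, its minor form, fell 2.46-fold and GLG1, the glycogenin primer, 2.57-fold (adjusted p = 0.0165 and 0.0175, and 0.129 and 0.132 without A880 replicate 1). PGM1, the minor phosphoglucomutase, had 107 and 113 against 483 and 437, a 4.19-fold rise (adjusted p = 0.00466), while the major form PGM2 had -0.32 ± 0.22. TPS3, a regulatory subunit of trehalose synthase, rose 2.13-fold (adjusted p = 0.04, and 0.257 without BY4741 replicate 1). Of the alcohol dehydrogenases, ADH5 had 1111 and 1257 against 389 and 408 and fell 2.97-fold (adjusted p = 0.00252), and ADH2, the enzyme that consumes ethanol, had -0.13 ± 0.52.

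In the fit of all 8 arrays, the sterol genes that rose belong mainly to the last part of the pathway, from lanosterol to ergosterol. Of 12 mevalonate and early sterol genes, 2 rose and none fell, with a median of 0.34. In the fit of the 4 arrays 7 of these early genes were higher and 3 lower, and at an unadjusted p below 0.05, 3 and 1. Of 12 late genes, 7 rose and none fell (9 higher and 0 lower in the fit of the 4 arrays, 8 and 0 at an unadjusted p below 0.05), with a median of 0.97. ERG5, the desaturase, had 107 and 138 on BY4741 and 685 and 1276 on A880, a 7.67-fold rise (2.94 ± 0.33, adjusted p = 0.000645). ERG3, another desaturase, had 252 and 213 against 906 and 1748, a 5.44-fold rise (adjusted p = 0.00218), and ERG25, a methyl oxidase, 789 and 763 against 3043 and 4000, a 4.50-fold rise (adjusted p = 0.000634). In all 3 genes the A880 arrays differed from each other by more than the BY4741 arrays did, with the higher signal in replicate 2. ERG6 rose 2.33-fold and ERG27 1.81-fold (adjusted p = 0.0228 and 0.0282, and 0.271 and 0.241 without A880 replicate 2). ERG11, the target of azole drugs, and ERG2 rose 2.20-fold and 1.73-fold (adjusted p = 0.0149 and 0.035), calls lost with equal array medians (0.059 and 0.0882) and with 1 array left out (0.162 without BY4741 replicate 2 and 0.324 without A880 replicate 2). Of the 12 genes of the mevalonate and early sterol pathway, ERG12 rose 2.19-fold and ERG1, squalene epoxidase, 2.05-fold (adjusted p = 0.0112 and 0.0288, and 0.13 without A880 replicate 1 and 0.28 without A880 replicate 2), while HMG1, the main reductase, had 0.21 ± 0.34. The sterol regulators UPC2 and ECM22 had -0.16 ± 0.42 and 0.34 ± 0.34, and none of 7 regulators and uptake genes was called in limma (2 higher and 2 lower in the fit of the 4 arrays, 0 and 0 at an unadjusted p below 0.05).

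Of 11 genes known to be induced when oxygen is low, 2 rose and 2 fell. HEM13, a heme enzyme that uses oxygen, had 254 and 237 against 785 and 789, a 3.21-fold rise (adjusted p = 0.00218). OLE1, the fatty acid desaturase, rose 1.98-fold (adjusted p = 0.0209), a call lost with equal array medians (0.0981) and without A880 replicate 2 (0.299). TIR2, a cell wall mannoprotein of anaerobic cells, had 534 and 560 against 129 and 172 and fell 3.68-fold, and COX5B, the hypoxic form of a cytochrome oxidase subunit, fell 2.60-fold (adjusted p = 0.00736 and 0.0294, and 0.0747 and 0.219 without BY4741 replicate 1).

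Folding genes rose in part. Of 14 genes for folding in the endoplasmic reticulum, 5 rose and none fell (9 higher and 1 lower in the fit of the 4 arrays, 8 and 1 at an unadjusted p below 0.05), with a median of 0.66, and 4 of 13 rose without the member on chromosome I. SIL1, the nucleotide exchange factor of the chaperone Kar2, had 77.9 and 69.3 on BY4741 and 715 and 404 on A880, a 7.32-fold rise (2.87 ± 0.34, adjusted p = 0.000835). KAR2 itself had 2571 and 2760 against 5461 and 5358, a 2.03-fold rise (adjusted p = 0.0236), a call lost with equal array medians (0.125) and without BY4741 replicate 1 (0.199). SCJ1, a co-chaperone of Kar2, and MPD1, a disulfide isomerase, rose 3.01-fold and 2.65-fold (adjusted p = 0.013 and 0.00829, and 0.112 without BY4741 replicate 1 and 0.127 without A880 replicate 1). CNE1, calnexin, on chromosome I, rose 2.50-fold (adjusted p = 0.0102, and 0.134 without BY4741 replicate 1). HAC1, the transcription factor of the unfolded protein response, had -0.59 ± 0.25 and PDI1, the main disulfide isomerase, 0.18 ± 0.22. SIL1 lies in a run of 4 neighbours on chromosome XV that all rose, with MSE1, OPI10 and GAS5; it was 1 of 4 runs of 4 or more called neighbours in the genome, and the other 3 fell, 2 of them the blocks at the ends of chromosomes III and X. OPI10 had 443 and 580 against 2772 and 2623, a 5.32-fold rise (adjusted p = 0.000954). The search for runs was made after the values were seen.

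Of 22 cytosolic chaperone genes, 7 rose and none fell (10 higher and 3 lower in the fit of the 4 arrays, 8 and 0 at an unadjusted p below 0.05), with a median of 0.24. SSA2, a main Hsp70, had 740 and 462 against 2974 and 2791, a 4.93-fold rise (adjusted p = 0.00329). SSA4, its stress-induced relative, had 2347 and 1607 against 5067 and 5691 and rose 2.77-fold (adjusted p = 0.00799, and 0.089 without BY4741 replicate 2). CPR6, a co-chaperone of Hsp90, rose 2.31-fold (adjusted p = 0.00778, and 0.122 without BY4741 replicate 1), while the Hsp90 genes HSP82 and HSC82 had 0.28 ± 0.23 and 0.13 ± 0.22. HSP104, the disaggregase, was at 6056 and 6262 against 6008 and 6393. Of 35 genes for proteasome subunits, assembly factors and their activator RPN4, 11 rose and none fell (29 higher and 0 lower in the fit of the 4 arrays, 22 and 0 at an unadjusted p below 0.05), with a median of 0.62. PRE8, a subunit of the core, had 1382 and 1434 against 3302 and 3252, a 2.33-fold rise, and RPN7 of the lid rose 2.14-fold (adjusted p = 0.00519 and 0.00805, and 0.0769 and 0.108 without BY4741 replicate 1). RPN4 had 3045 and 3233 against 3621 and 3920 (0.26 ± 0.24, adjusted p = 0.489). With any 1 of the 4 compared arrays left out none of the proteasome genes was called. With equal array medians 5 rose and with quantile normalization 27.

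Of 27 genes for cell wall proteins and enzymes, 6 rose and 1 fell (12 higher and 3 lower in the fit of the 4 arrays), with a median of 0.40. PIR1 and PIR3, wall proteins with internal repeats that are neighbours on chromosome XI, had 557 and 662 against 4640 and 4538, and 320 and 260 against 1952 and 2441. They rose 7.55-fold and 7.56-fold (adjusted p = 0.00011 and 7.63e-05). The related genes HSP150 and CIS3 had 0.74 ± 0.25 and 0.39 ± 0.41. EXG1, a glucanase, and PST1, a wall protein, rose 4.03-fold and 2.87-fold (adjusted p = 0.00796 and 0.0165, and 0.0674 and 0.147 without BY4741 replicate 2); both differed between the BY4741 arrays, at 459 and 223 for EXG1. CHS2, the chitin synthase of the division septum, rose 3.14-fold (adjusted p = 0.015, and 0.132 without BY4741 replicate 1), and GAS5, a glucan transferase, 2.10-fold (adjusted p = 0.024, and 0.224 without BY4741 replicate 2). CHS1, the repair chitin synthase, had 2931 and 2607 against 1251 and 714 and fell 2.93-fold (adjusted p = 0.0152, and 0.157 without A880 replicate 2). EGT2, a daughter cell wall protein, and GAS2, a spore wall transferase, were among the largest rises, at 222 and 203 against 1333 and 955 and at 48.3 and 27.6 against 188 and 331. Of 16 cell wall integrity signalling genes, 2 fell: MKK1, a kinase of the pathway, had 1580 and 1704 against 601 and 615 and fell 2.70-fold (adjusted p = 0.00335, and 0.0512 without BY4741 replicate 2), and SAC7, which turns off the GTPase Rho1, fell 1.88-fold (adjusted p = 0.0392, and 0.314 without A880 replicate 2), while the final kinase SLT2 had 0.32 ± 0.24.

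Markers of mating type were read next. Of 7 genes specific to a cells, all were detected in both strains, as were 99.5% to 99.9% of probe sets on each array. Detection alone therefore does not tell the mating types apart. MFA1, a pheromone gene of a cells, was at 1047 and 1225 against 761 and 1336. The pheromone genes of alpha cells, MF(ALPHA)1 and MF(ALPHA)2, were low at 38.5 and 27.2 against 27.8 and 51.8 and at 68.9 and 57.5 against 32.1 and 30.5, above background but with no call, while STE3, the alpha cell's receptor, was at 223 and 206 against 221 and 213. Single mating genes were called. Of the 7 a-cell genes 1 rose and 1 fell, of 4 alpha-cell genes 1 fell, and of 14 pheromone-induced genes 1 rose. Of all probe sets 7.71% rose and 6.19% fell. AGA2, an agglutinin subunit, rose 2.76-fold and MFA2, the second a-factor gene, fell 2.63-fold (adjusted p = 0.0107 and 0.016, and 0.187 and 0.211 without BY4741 replicate 1). SAG1, the alpha agglutinin, fell 2.14-fold (adjusted p = 0.0216, and 0.249 without BY4741 replicate 1), and KAR4, a factor for nuclear fusion and meiosis, had 233 and 291 against 993 and 1018, a 3.86-fold rise (adjusted p = 0.00198).

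Some early meiotic genes were higher. Of 19 genes for entry into meiosis and its early steps, 4 rose and none fell (6 higher and 2 lower in the fit of the 4 arrays, 4 and 1 at an unadjusted p below 0.05), with a median of 0.48. IME1, the master activator of meiosis, had 179 and 212 on BY4741 and 2094 and 2353 on A880, an 11.4-fold rise (3.51 ± 0.27, adjusted p = 4.02e-05). RED1, a protein of the meiotic chromosome axis, had 130 and 125 against 858 and 960, a 7.12-fold rise (adjusted p = 0.000444). HOP1, its partner, rose 3.67-fold and DMC1, the meiotic recombinase, 3.46-fold (adjusted p = 0.00679 and 0.0209, and 0.0942 and 0.223 without A880 replicate 2). IME2, the kinase that acts after Ime1, had 293 and 239 against 382 and 486 (0.70 ± 0.33, adjusted p = 0.185), and NDT80, the activator of middle meiosis, 0.38 ± 0.32. RME1, a repressor of IME1 in haploids, had 0.33 ± 0.24.

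Among 10 genes of ribonucleotide reductase and its DNA damage control, 4 rose and none fell (5 higher and 1 lower in the fit of the 4 arrays, 5 and 0 at an unadjusted p below 0.05), with a median of 0.56. RNR1, the large subunit, had 113 and 148 against 592 and 652, a 4.79-fold rise (adjusted p = 0.031, and 0.176 without BY4741 replicate 1). DUN1, the kinase that controls the enzyme, rose 2.60-fold and RNR3, the damage-induced large subunit, 1.85-fold (adjusted p = 0.023 and 0.0372, and 0.177 without BY4741 replicate 1 and 0.366 without A880 replicate 2). RNR4, a small subunit, rose 1.74-fold (adjusted p = 0.0411), a call lost with equal array medians (0.175) and without BY4741 replicate 1 (0.421), and RNR2, the other small subunit, had 0.30 ± 0.20. Of 16 cyclins and G1 regulators, CLB2, a mitotic cyclin, rose 2.63-fold from 54 and 40.2 to 132 and 113 (adjusted p = 0.0339, and 0.243 without BY4741 replicate 2). The fit of the 4 arrays called 8 of these 16 genes higher and 2 lower. The G1 cyclins CLN1 and CLN2 overlapped between the strains. None of 9 histone genes was called in limma (0 higher and 4 lower in the fit of the 4 arrays, 0 and 1 at an unadjusted p below 0.05).

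Iron and copper uptake genes were counted next. Of 26 genes of the iron regulon, 10 fell and none rose (15 lower and 1 higher in the fit of the 4 arrays, 13 and 1 at an unadjusted p below 0.05), with a median of -0.73, and 1 to 3 fell with 1 of the compared arrays left out. Besides ARN2, which had no signal in A880, ARN1, another siderophore transporter, had 932 and 877 against 290 and 254 and fell 3.33-fold (adjusted p = 0.0045, and 0.0645 without BY4741 replicate 1). The reductase family genes FRE5 and FRE3 fell 6.10-fold and 2.86-fold and FET3, the ferroxidase, 1.92-fold (adjusted p = 0.00868, 0.011 and 0.0426). These 3 calls were lost without BY4741 replicate 1. AFT2, a paralog of the regulon's activator, fell 2.03-fold (adjusted p = 0.0235, and 0.294 without BY4741 replicate 1), and AFT1, the main activator, had 476 and 556 against 222 and 245 (-1.14 ± 0.39, adjusted p = 0.0732). CTR3, a copper transporter of the plasma membrane, was the 1 of 11 copper genes called, and that list's median was -0.19. CTR3 had 77.5 and 52.3 against 1189 and 1502, a 21-fold rise (4.39 ± 0.36, adjusted p = 5.46e-05), while CTR1, the other such transporter, had 193 and 125 against 207 and 192 with overlapping groups.

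Of 20 genes repressed by good nitrogen sources, 6 fell and 2 rose (10 lower and 3 higher in the fit of the 4 arrays), with a median of -0.43. MEP2, the ammonium permease that also acts as a sensor, had 1767 and 972 on BY4741 and 257 and 226 on A880, a 5.44-fold fall (adjusted p = 0.0015). MEP1, another ammonium permease, had 943 and 1217 against 2190 and 2010 and rose 1.96-fold (adjusted p = 0.0333), a call lost with equal array medians (0.0653) and without BY4741 replicate 1 (0.315). Of the genes for the use of allantoin and urea, DAL2, DAL5 and DAL7 fell 2.95-fold, 2.64-fold and 3.41-fold and DUR3, the urea transporter, 2.85-fold (adjusted p = 0.00329, 0.00816, 0.00824 and 0.0168, and 0.0645, 0.102, 0.107 and 0.183 without BY4741 replicate 1). DAL3 was the sixth gene that fell (adjusted p = 0.0276), with 0.0566 under quantile normalization and 0.237 without BY4741 replicate 1. DAL1 and DAL4, also of allantoin use, had 0.14 ± 0.51 and -0.34 ± 0.39, with overlapping groups. GAP1, the general amino acid permease, had 3409 and 2193 against 2768 and 2378. BAP3, a permease for branched-chain and other amino acids, had 308 and 225 against 1607 and 1161, a 5.19-fold rise (adjusted p = 0.00118).

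Calls among amino acid genes went both ways. Of 11 genes for branched-chain amino acids, 4 fell and none rose (4 lower and 4 higher in the fit of the 4 arrays, 4 and 3 at an unadjusted p below 0.05), with a median of 0.03. ILV6, a regulatory subunit, had 2672 and 2783 against 1220 and 1348 and fell 2.13-fold, and BAT2, the cytosolic transaminase, 6518 and 5998 against 2787 and 3033, a 2.15-fold fall (adjusted p = 0.00801 and 0.0111, and 0.105 without A880 replicate 1 and 0.136 without BY4741 replicate 1). Of 20 genes for sulfate and methionine, MUP1, a methionine permease, rose 4.08-fold, from 210 and 227 to 1005 and 789 (adjusted p = 0.0235, and 0.124 without BY4741 replicate 1). MET6, methionine synthase, and MMP1, a permease for S-methylmethionine, fell 2.32-fold and 5.71-fold (adjusted p = 0.029 and 0.0379), calls lost with equal array medians (0.071 and 0.0511) and without A880 replicate 2 (0.192 and 0.167). MET17 and CYS3 of this list differed more between the BY4741 arrays, at 713 and 2180 and at 366 and 971, than between the strains. Of these 20 genes 1 rose and 2 fell, near the 13.9% of all probe sets called, with a median of -0.71. The fit of the 4 arrays called 1 higher and 8 lower.

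The cytosolic translation machinery gave few calls. Of 128 cytosolic ribosomal proteins, 1 fell and none rose (15 lower and 19 higher in the fit of the 4 arrays, 4 and 2 at an unadjusted p below 0.05), with a median of -0.01. That gene was RPL22B, the minor copy of its pair, at 773 and 759 against 346 and 367, a 2.15-fold fall (adjusted p = 0.0288, and 0.196 without BY4741 replicate 1). Of 26 initiation factors, FUN12 on chromosome I alone was called in limma, while the fit of the 4 arrays called 10 higher and 1 lower. Of 10 elongation and termination factors none was called in limma (3 higher and 2 lower in the fit of the 4 arrays, 0 and 0 at an unadjusted p below 0.05). Of 47 ribosome biogenesis genes, NSR1, the nucleolin homolog, had 3015 and 2991 against 612 and 535, a 5.25-fold fall (adjusted p = 0.0198, and 0.0953 without BY4741 replicate 1), and NOP9 rose 2.17-fold (adjusted p = 0.0446), a call lost under both other scalings (0.0524 and 0.0644) and without A880 replicate 1 (0.263). Of 34 autophagy genes, 3 fell and 2 rose, near the 6.19% and 7.71% of all probe sets, with a median of -0.24. The fit of the 4 arrays called 16 of them lower and 7 higher. ATG29, a scaffold of the starting complex, had 736 and 794 against 292 and 298 and fell 2.59-fold (adjusted p = 0.0104, and 0.101 without BY4741 replicate 2), while ATG8, the conjugated core protein, had -0.44 ± 0.23 and the kinase ATG1 -0.06 ± 0.24.

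Stress genes were called at about the share of all probe sets, 13.9%. Of 16 general stress genes, 2 rose, with a median of -0.02, and of 22 for oxidative defence 1 rose and 2 fell, with a median of -0.08. CTT1, the cytosolic catalase, had 983 and 1334 against 2146 and 3133 and rose 2.26-fold (adjusted p = 0.0388), a call lost with equal array medians (0.135) and without BY4741 replicate 1 (0.286). TSA2, a peroxiredoxin, had 892 and 726 against 248 and 266 and fell 3.13-fold (adjusted p = 0.0244), a call lost with equal array medians (0.0523) and without BY4741 replicate 1 (0.162). CCP1, the mitochondrial cytochrome c peroxidase, fell 1.89-fold (adjusted p = 0.0131, and 0.177 without BY4741 replicate 1).

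In the lists that follow, as in those above, counts are to be read against 7.71% of all probe sets that rose and 6.19% that fell. For counts from the fit of the 4 arrays these shares are 29.6% higher and 24.8% lower. At an unadjusted p below 0.05 they are 17.0% and 13.3% of all genes. Of 16 genes of the phosphate regulon, 2 fell, with a median of -0.13, and PHO84, the phosphate transporter that marks phosphate starvation, was low in both strains at 43.6 and 49.9 against 38.1 and 37. Of 7 arginine synthesis genes, CPA1 fell 1.92-fold (adjusted p = 0.0381), a call lost with equal array medians (0.0583) and without BY4741 replicate 1 (0.273), and the list's median was -0.79. Of 8 haploid-specific genes, HO and FAR1 rose, with FAR1, an inhibitor of the cell cycle in mating, at 124 and 107 against 290 and 288 (adjusted p = 0.0341, and 0.234 without BY4741 replicate 2). Of 20 subunits of RNA polymerases I and III, RPC17 rose 2.78-fold (adjusted p = 0.0112, and 0.157 without BY4741 replicate 1), with a list median of 0.11. Of 7 mitochondrial chaperone genes, 1 rose (5 higher and 0 lower in the fit of the 4 arrays), with a median of 0.51, and HSP60 had 0.51 ± 0.25 with no call. That fit also called 5 of the 7 arginine synthesis genes lower and 0 higher. It called 5 of the 8 haploid-specific genes higher and 0 lower, and 8 of the 20 polymerase subunits higher and 1 lower.

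The largest falls outside the blocks were in genes of scattered function. SRL4, a gene that suppresses the lethality of a checkpoint mutant, had 1353 and 1518 on BY4741 and 120 and 133 on A880, an 11.4-fold fall (adjusted p = 0.000276). ICY1, which interacts with the cytoskeleton, had 3439 and 3285 against 399 and 419, an 8.22-fold fall (adjusted p = 3.46e-05). QDR2, a multidrug transporter, had 257 and 200 against 22.8 and 22.5, a 10.0-fold fall (adjusted p = 0.000352). In these 3 genes the A880 arrays lay close together and far under both BY4741 arrays. SDD1, GTO3, a glutathione transferase, and RRT15 followed, with falls of 6.31-fold, 5.82-fold and 7.19-fold (adjusted p = 0.00218, 0.00304 and 0.000881). Among rises not yet described, ADD37, a protein of the endoplasmic reticulum's degradation pathway, had 122 and 130 against 1010 and 693, a 6.63-fold rise (adjusted p = 0.000437).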

How the data were processed

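RNA from A880 and BY4741 cultures, 2 arrays each, was measured on Affymetrix Yeast Genome 2.0 arrays. The authors deposited 1 linear signal intensity for each probe set and array; MAS5 is the tool the submitters' processing notes name, without a version. Names came from the platform table, with 12 symbols updated and 128 tested probe sets that match near-identical genes. S. cerevisiae probe sets with 1 gene were tested where above background, the 90th percentile of an array's probe sets for the other species, on at least 2 of 8 arrays, giving 5496 for 5448 genes. Group means of log2 signal over all 8 arrays were fitted with limma 3.58.1 (eBayes with an intensity trend, R 4.3.3; jsonlite 2.0.0 read the labels), with 4 residual degrees of freedom. Adjusted p-values are Benjamini-Hochberg. A fold against a group below background is a bound. Lists count 1 probe set per gene, and medians carry no test. With 2 arrays against 2, an exact permutation test cannot go below 0.333. The members and lists were chosen with earlier results of these data known. Named genes are members of the lists, genes detected in 1 strain only, and up to 20 of the largest changes each way. The code was tested on simulated data. Precision is limited by 2 arrays per strain. Raw scans were not analysed here.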

Additional observations from a re-analysis of the deposited data

How the results depend on the processing

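Of the 764 called probe sets, all kept their direction under each of the settings tried, and 656 stayed called under both other scalings. Quantile normalization gave 1404 calls, the 4 compared arrays alone 2992 and an adjusted p below 0.01 gave 220. With 1 array left out the count ranged from 95 to 1261: it was 95 to 164 without an array of BY4741 or A880 and 1255 to 1261 without one labelled A880STM1 or A880STM1K. Equal array medians gave 966 calls, 413 higher and 553 lower, so that the higher share went from 55.5% to 42.8%, with the median of all genes at -0.10. Other filters, a pseudocount of 16, a floor at background, all probe sets of the array and no intensity trend gave 713 to 772. Leaving chromosome I out, chosen after seeing the data, gave 732. The median of chromosome I over that of all genes was 0.707 with quantile normalization and 0.588 to 0.615 with 1 array left out. The highest of the other 15 was 0.131 with quantile normalization, 0.104 with genes above background on all 4 arrays and 0.0662 to 0.113 with 1 array left out, and the lowest -0.178 to -0.123. The cause of these differences was not tested. Deviations of arrays with the same replicate number correlated between 0.0367 and 0.287 over pairs of groups, all above 0. The main fit did not pair cultures by these numbers, and whether they mark a shared batch was not tested. With the replicate block 993 probe sets were called, against 764 without it. The planned promoter motif counts were not run, since no promoter sequences were used here.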
